A study of Mus musculus with 8 samples.

Results

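NRF2, encoded by Nfe2l2, and 8 genes that it is known to activate were followed in mouse liver from 4 genotypes: the transcription factor itself, Nqo1, Gclc, Gclm, Cbr3, Gsr, Hmox1, Srxn1 and Txnrd1. They were chosen by symbol, with earlier results of these data known. The array annotation assigned 16 probe sets to exactly 1 of these symbols and 0 probe sets to a member together with another gene, so that all 9 of 9 were measured, out of 12393 genes in all. Where a gene had several probe sets, the one with the highest mean level was used, and the further probe sets of Gclc, Gsr, Srxn1 and Txnrd1 served as a check.

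Liver RNA was hybridised to 8 Affymetrix arrays, 2 for each genotype, and values are log2 expression levels. All mice had a background labelled C57BL and were on standard chow at 23°C. Wild-type mice carried both genes intact. SHP-/- mice lacked SHP (small heterodimer partner, the Nr0b2 gene product, a nuclear receptor that represses other nuclear receptors). OB-/- mice lacked leptin, the fat-tissue hormone that restrains feeding, and OB-/-/SHP-/- mice lacked both. The labels give neither age nor sex, and it is not stated whether replicate arrays stand for different mice, so p-values measure only the spread between these samples.

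NRF2 is a transcription factor that is held low in unstressed cells because KEAP1 hands it to a ubiquitin ligase. Electrophiles and oxidants modify KEAP1, NRF2 then accumulates, pairs with a small MAF protein and binds antioxidant response elements, and BACH1 competes for such elements. Its control lies largely in protein stability, so the RNA of Nfe2l2 is not a measure of its activity. In liver its targets make and recycle glutathione, reduce quinones and peroxides, supply NADPH and break down heme.

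To show what lies before the genes that the results turn on, these are the bases upstream of the RefSeq start (build GRCm38.p6, 5′ to 3′ on the gene's strand) of the members that differed between OB-/- and wild-type and had an entry. Capitals mark TGANNNNGC, a loose form of the antioxidant response element core, on either strand. The windows are chr16:93682969-93683218 on the plus strand, chr8:107403206-107403455 on the minus strand, chr2:152105274-152105523 on the plus strand and chr3:122245307-122245486 on the plus strand.
Cbr3: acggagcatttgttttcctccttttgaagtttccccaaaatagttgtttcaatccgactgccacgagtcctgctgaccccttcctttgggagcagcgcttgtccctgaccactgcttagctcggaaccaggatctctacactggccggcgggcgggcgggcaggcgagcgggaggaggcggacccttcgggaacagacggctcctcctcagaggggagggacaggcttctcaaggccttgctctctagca
Nqo1: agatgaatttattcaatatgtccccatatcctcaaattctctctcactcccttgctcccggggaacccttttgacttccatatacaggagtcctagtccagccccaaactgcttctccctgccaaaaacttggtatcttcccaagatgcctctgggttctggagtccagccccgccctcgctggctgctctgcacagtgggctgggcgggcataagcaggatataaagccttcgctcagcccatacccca
Srxn1: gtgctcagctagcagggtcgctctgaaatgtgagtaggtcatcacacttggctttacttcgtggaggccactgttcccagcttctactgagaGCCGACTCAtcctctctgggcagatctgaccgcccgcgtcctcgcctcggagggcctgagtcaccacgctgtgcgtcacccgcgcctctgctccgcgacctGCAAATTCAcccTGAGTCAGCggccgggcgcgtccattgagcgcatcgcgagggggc
Gclm: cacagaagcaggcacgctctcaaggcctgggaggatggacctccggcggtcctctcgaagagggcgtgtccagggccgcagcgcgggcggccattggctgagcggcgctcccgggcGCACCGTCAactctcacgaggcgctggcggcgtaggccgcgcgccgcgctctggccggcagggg
The first 3 windows hold 250 bases, and that of Gclm is given for its first 180 bases, up to the outermost start of the gene. No run of these letters was found in the windows of Cbr3 and Nqo1. Srxn1 had 3, which begin 158, 57 and 45 bases before its start and do not overlap, and Gclm had 1, from 134 to 126 bases before the start used by the table. The stricter TGACNNNGC, contained in the looser form, was found in the window of Gclm and not in that of Srxn1. For scale, 35.2% of 32851 windows of the same length in the table held TGANNNNGC on either strand and 10.2% held TGACNNNGC. Over all members, 6 had an entry, 4 of them held TGANNNNGC in a window, and 3 held TGACNNNGC (Nfe2l2, Gclm and Txnrd1), where 38.7% and 11.5% of the 27025 genes in the table held them in at least 1 window. A match is a description of the letters, not of binding.

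The arrays are described here in brief. Array medians lay between 5.45 and 5.56, and arrays of 1 genotype correlated across genes at r between 0.992 and 0.995. Hepatocyte markers marked the samples as liver: 5 of 6 were measured, and their mean level was between 12.97 and 13.27 on every array. Nr0b2, the targeted gene of SHP-/-, stood between 7.78 and 8.31 in SHP-/- against 8.71 and 8.74 in wild-type, and between 6.66 and 7.11 in OB-/-/SHP-/- against 8.01 in both OB-/- arrays. Whether its probe set lies in the deleted part is not known here. OB-/- replicate 1 stood apart in Xist, a female-specific RNA, at 7.41 against 4.31 to 4.70 elsewhere, while the Y-linked Eif2s3y read 6.57 to 7.50 on all 8 arrays. SHP-/- replicate 1 stood apart in the immediate-early gene Fos, at 11.95 against 5.17 to 6.98. The 3′ probe set of Gapdh exceeded its 5′ probe set, an offset that grows as RNA degrades, by 0.90 in wild-type and 0.27 in SHP-/-. In the leptin-null genotypes that offset was -0.04 (OB-/-) and 0.07 (OB-/-/SHP-/-).

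Loss of leptin split the group. In OB-/- against wild-type, Cbr3, Nqo1 and Srxn1 rose, Gclc and Gclm fell, and Nfe2l2, Gsr, Hmox1 and Txnrd1 did not pass the test (limma over all genes, Benjamini-Hochberg adjusted p below 0.05). The 5 of 9 members called stand against 16.9% of all genes called in the same comparison, 7.58% higher and 9.36% lower. Because the members were chosen with earlier results of these data known, such counts describe them and do not test the group. The median difference of the 9 members was 0.14 against -0.01 over all genes. Without SHP, in OB-/-/SHP-/- against SHP-/-, 5 of 9 were again called: Nqo1 and Cbr3 rose, and Nfe2l2, Gclc and Gclm fell. There 10.6% of all genes were called, 4.95% higher and 5.62% lower, and the median difference of the members was -0.02 against 0.03 over all genes. Both leptin comparisons share no array. Nqo1, Gclc, Gclm and Cbr3 were called in both, each in the same direction, which is 4 of the 5 members called in each. Over all genes, 841 of the 12393 (6.79%) were called in both in the same direction, out of 2100 and 1311 called. The further probe set of Gclc did not show the fall in OB-/- against wild-type (0.17). Loss of SHP moved 0 of 9 members in leptin-intact mice by limma, with 1 at an unadjusted p below 0.05 and 0.323% of all genes called. In leptin-null mice it moved Cbr3 alone among the 9, with 3 at an unadjusted p below 0.05 and 2.14% of all genes called, 1.26% higher and 0.880% lower.

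Both arrays of OB-/- lay to 1 side of both wild-type arrays in 9 of 9 members and in 57.5% of all genes, and with SHP absent this held for 7 of 9 members and 53.9% of all genes. For SHP loss it held for 3 of 9 members and 36.1% of all genes in leptin-intact mice, and for 4 of 9 members and 4961 of the 12393 genes in leptin-null mice.

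**Figure D1:**
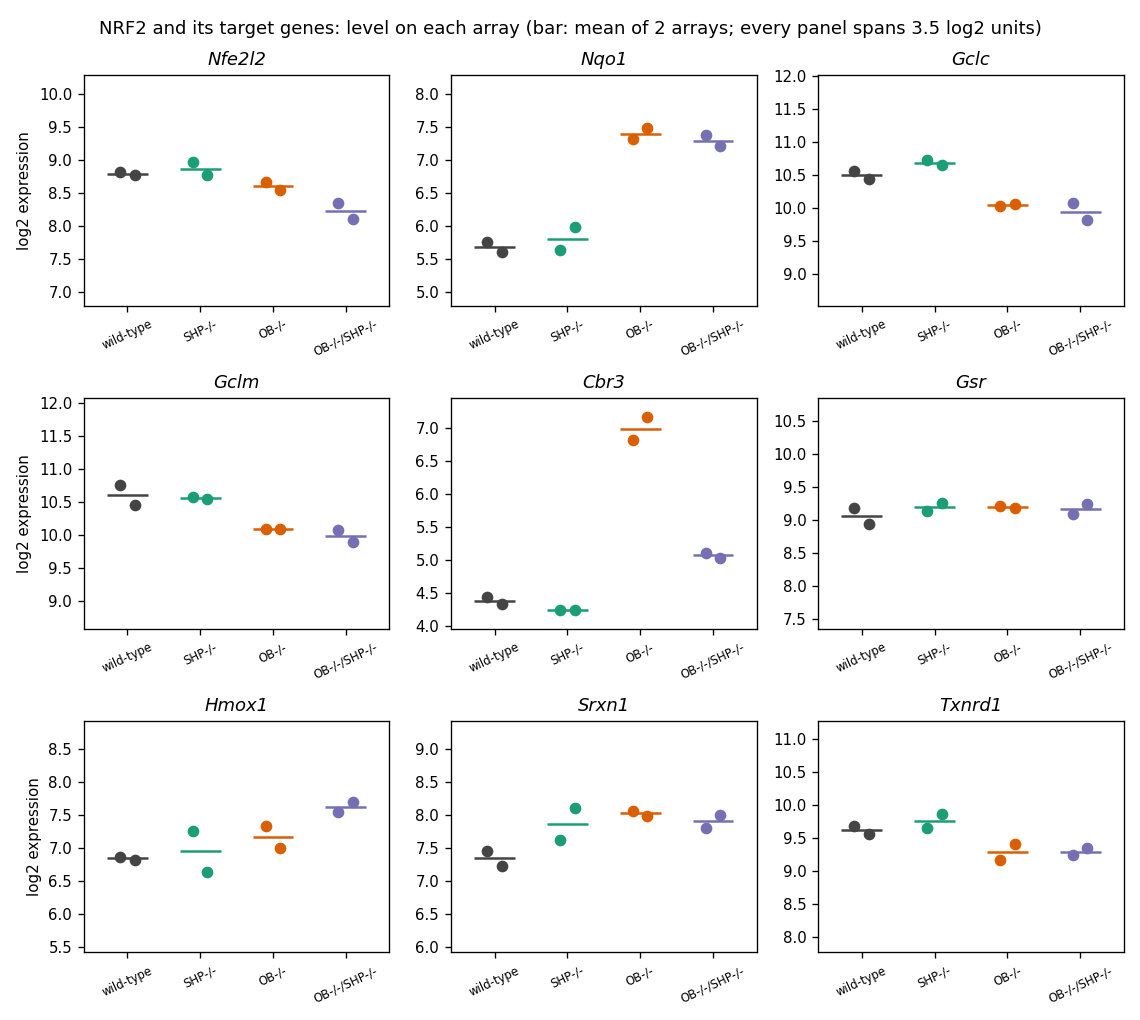
Level of each member on each array (vertical axis, log2 expression, every panel spanning the same number of units) by genotype, with a point per array and a bar at the mean of both arrays. Nqo1 is high in both leptin-null genotypes, and Cbr3 stands at 6.82 and 7.16 in OB-/- alone. Gclm and the probe set used for Gclc are lower in both leptin-null genotypes.

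The regulator came first. Nfe2l2 stood at 8.82 and 8.77 on the wild-type arrays, 8.98 and 8.77 on those of SHP-/-, 8.68 and 8.55 on those of OB-/-, and 8.35 and 8.12 on those of OB-/-/SHP-/-. The order of the means was SHP-/-, wild-type, OB-/- and OB-/-/SHP-/-, and only SHP-/- and wild-type overlapped among neighbours. It fell by 0.64 ± 0.14 (moderated SE, 2 arrays per genotype, here and below) in OB-/-/SHP-/- against SHP-/- (adjusted p = 0.0173), a 1.56-fold drop. That call was lost without SHP-/- replicate 1 or without OB-/-/SHP-/- replicate 2, with adjusted p up to 0.114. In OB-/- against wild-type the difference was -0.19 ± 0.14 (adjusted p = 0.449), and in OB-/-/SHP-/- against OB-/- it was -0.38 ± 0.14 (adjusted p = 0.287). Whether leptin loss acted differently on Nfe2l2 with and without SHP did not pass the interaction test (-0.46 ± 0.20, adjusted p = 0.583).

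Among genes at or above the median level, those closest to Nfe2l2 after each gene's wild-type mean was subtracted were Pdcl, Blzf1 and Fbxo33. Their root mean square differences from Nfe2l2 over the 8 arrays were 0.080, 0.082 and 0.084 log2 units, out of 6127 genes searched. For Nqo1 the closest were Uck1, Leap2 and Rnd2, at 0.22, 0.23 and 0.24.

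Nqo1 encodes a quinone reductase that takes electrons from NADH or NADPH and is a standard readout of NRF2. Its level was 5.76 and 5.60 on the wild-type arrays, 5.64 and 5.98 on those of SHP-/-, 7.32 and 7.48 on those of OB-/-, and 7.38 and 7.22 on those of OB-/-/SHP-/-. Every leptin-null array was above every leptin-intact array, while OB-/- overlapped with OB-/-/SHP-/- and SHP-/- with wild-type. Nqo1 rose 3.29-fold in OB-/- against wild-type (1.72 ± 0.16, adjusted p = 3.796e-05), the 84th largest rise of 12393 genes. It rose 2.81-fold in OB-/-/SHP-/- against SHP-/- (1.49 ± 0.16, adjusted p = 1.5846e-04). Both calls held with any single array left out (adjusted p up to 0.0016 and 0.0019). SHP loss gave 0.13 ± 0.16 with leptin (95% interval -0.22 to 0.47) and -0.11 ± 0.16 without it (-0.45 to 0.24), and the interaction was -0.23 ± 0.22 (adjusted p = 0.868).

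Cbr3, a carbonyl reductase that uses NADPH on ketones and quinones, had the largest range of the 9. Its level was 4.44 and 4.33 on the wild-type arrays, 4.25 and 4.25 on those of SHP-/-, 6.82 and 7.16 on those of OB-/-, and 5.11 and 5.03 on those of OB-/-/SHP-/-. No neighbouring genotypes overlapped, with OB-/- highest, OB-/-/SHP-/- next, then wild-type and SHP-/-. The leptin-intact levels were below 4.83, the 40th percentile of probe set means, and no detection call was used here, so a fold taken from them may be understated. Cbr3 rose 6.09-fold in OB-/- against wild-type (2.61 ± 0.15, adjusted p = 9.07511e-07), the 37th largest rise of all genes. It fell 3.79-fold in OB-/-/SHP-/- against OB-/- (-1.92 ± 0.15, adjusted p = 1.92533e-05), the 13th largest fall, and both comparisons share the OB-/- arrays. With SHP absent, leptin loss raised it 1.77-fold (0.82 ± 0.15, adjusted p = 0.00536).

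The measured difference for SHP loss was -0.14 ± 0.15 with leptin and -1.92 without, and the interaction term was -1.78 ± 0.21 (adjusted p = 0.00145). The leptin-intact arrays read 4.25 to 4.44, below the dim level of 4.83, with the same value on both SHP-/- arrays. Such readings leave little room for a fall, so a drop of the size seen without leptin might not register there, and the interaction does not show whether SHP acts on Cbr3 in leptin-intact liver. The interaction called 0.549% of all genes, 0.355% with a positive and 0.194% with a negative sign, and Cbr3 was the only one of the 9 members among them, with 3 at an unadjusted p below 0.05. All 4 calls of Cbr3 held with any single array left out. Without OB-/- replicate 1, the array with high Xist, the rise over wild-type was 2.78 and the difference of OB-/-/SHP-/- from OB-/- was -2.09.

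The mean level of pancreatic acinar cell markers was also highest in OB-/- and next in OB-/-/SHP-/-, while wild-type and SHP-/- overlapped. Of 6 listed, 4 were measured, and their mean level was 3.76 to 3.80 on the wild-type arrays, 3.69 to 3.77 on those of SHP-/-, 5.88 to 6.64 on those of OB-/- and 4.25 to 4.40 on those of OB-/-/SHP-/-. Clps, colipase, stood at 7.95 and 7.15 in the OB-/- arrays and Prss2, a trypsinogen, at 7.87 and 7.00. In OB-/- against wild-type 3 of the 4 were called higher, against 7.58% of all genes, and Cela2a was not (0.49, limma adjusted p = 0.128). Cpa1 read 4.02 and 3.78 in OB-/-/SHP-/- against 4.01 and 4.03 in wild-type. Cela2a, Clps and Cpa1 had means below the dim level of 4.83. In OB-/-, replicate 1 had a marker level of 6.64 and Cbr3 at 6.82, and replicate 2 had 5.88 and 7.16. The part of pancreatic acinar cells in the Cbr3 result was not tested.

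**Figure D2:**
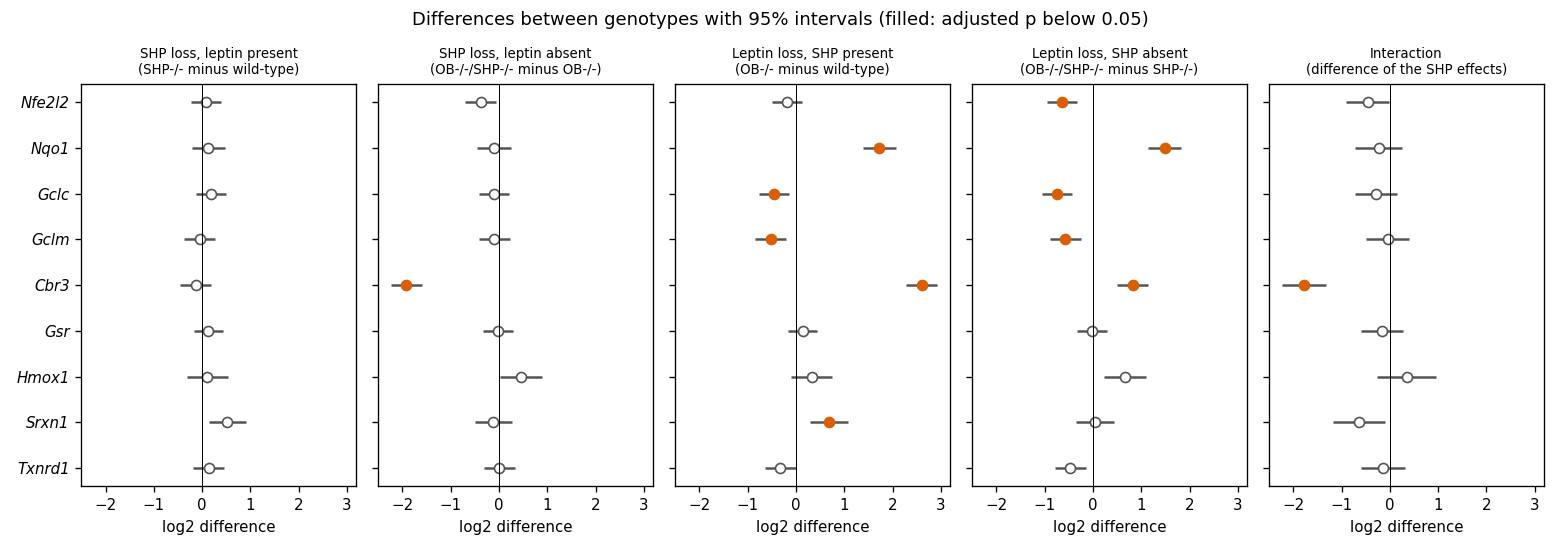
Log2 differences of the 9 members (horizontal axis) with 95% intervals in the 4 comparisons and the interaction, filled where the adjusted p was below 0.05. The intervals of Cbr3 lie beyond 0 in every panel but SHP-/- minus wild-type, and those of Nqo1 in both leptin comparisons.

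Gclc and Gclm encode the catalytic and modifier subunits of glutamate-cysteine ligase, the first and rate-limiting step of glutathione synthesis. Gclc stood at 10.56 and 10.45 on the wild-type arrays, 10.72 and 10.65 on those of SHP-/-, 10.04 and 10.06 on those of OB-/-, and 10.08 and 9.81 on those of OB-/-/SHP-/-. Gclm stood at 10.76 and 10.46 on the wild-type arrays, 10.58 and 10.55 on those of SHP-/-, 10.09 and 10.09 on those of OB-/-, and 10.08 and 9.89 on those of OB-/-/SHP-/-. For both subunits each leptin-null array was below each leptin-intact one.

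In OB-/- against wild-type Gclc fell by 0.45 ± 0.14 (adjusted p = 0.0466) and Gclm fell by 0.52 ± 0.15 (adjusted p = 0.0300). With SHP absent, Gclc fell by 0.74 ± 0.14 (adjusted p = 0.00721) and Gclm fell by 0.57 ± 0.15 (adjusted p = 0.0303). By the probe sets used, SHP loss gave differences between -0.11 and 0.18 for these genes, and neither passed in either background. These falls leaned on single arrays, and that of Gclc against wild-type also on the probe set: with both probe sets averaged it was -0.14 (adjusted p = 0.492). For Gclc against wild-type the call was lost without any 1 of the wild-type, SHP-/- or OB-/- arrays (adjusted p up to 0.218), and with SHP absent it was lost without OB-/-/SHP-/- replicate 2 (0.0584). For Gclm it was lost without wild-type replicate 1 or either OB-/- array (up to 0.217), and with SHP absent without any 1 of the SHP-/- and OB-/- arrays or OB-/-/SHP-/- replicate 2 (up to 0.165).

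The further probe set of Gclc did not show the fall in OB-/- against wild-type. It read 10.10 and 9.92 on the wild-type arrays, 10.29 and 10.25 on those of SHP-/-, 10.11 and 10.25 on those of OB-/-, and 9.91 and 9.88 on those of OB-/-/SHP-/-. Its difference was 0.17 ± 0.13 where that of the brighter probe set was -0.45, and with SHP absent it was -0.37 ± 0.13 (adjusted p = 0.112 over all probe sets). For SHP loss it gave 0.26 ± 0.13 with leptin and -0.28 ± 0.13 without it (limma, adjusted p = 0.652 and 0.476). Its interaction was -0.55 ± 0.19 (adjusted p = 0.379, unadjusted p = 0.0138), and none of these passed. The wild-type and OB-/- arrays also differed in the 3′ offset of Gapdh, 0.90 against -0.04, and its part in the probe sets' disagreement was not tested.

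Gsr, glutathione reductase, which returns oxidised glutathione to its reduced form with NADPH, lay between 8.95 and 9.25 on all 8 arrays. All neighbouring genotypes overlapped. Its differences were between -0.16 and 0.14 over the 4 comparisons and the interaction, and the 95% interval for OB-/- against wild-type was -0.17 to 0.44. A further probe set read -0.14 ± 0.16 in the same comparison.

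Srxn1, sulfiredoxin, repairs overoxidised peroxiredoxins. It stood at 7.46 and 7.23 on the wild-type arrays, 7.62 and 8.12 on those of SHP-/-, 8.06 and 7.99 on those of OB-/-, and 7.81 and 8.01 on those of OB-/-/SHP-/-. Wild-type was below all other arrays, and the other genotypes overlapped. Srxn1 rose 1.60-fold in OB-/- against wild-type (0.68 ± 0.18, adjusted p = 0.0217), a call lost without any 1 of the 4 arrays compared (adjusted p up to 0.144). In SHP-/- against wild-type it differed by 0.52 ± 0.18, which did not pass (adjusted p = 0.453, unadjusted p = 0.0126). With SHP absent, leptin loss gave 0.04 ± 0.18, and the interaction of -0.64 ± 0.25 did not pass (adjusted p = 0.494). Its 3 further probe sets gave -0.0031 ± 0.24, 0.71 ± 0.14 and 0.24 ± 0.14 for OB-/- against wild-type, of which the middle one passed over all probe sets (adjusted p = 0.00808). With its probe sets averaged, the rise in OB-/- against wild-type was 0.41 and did not pass (adjusted p = 0.0984). With SHP absent, the 3 further probe sets gave -0.52 ± 0.24, 0.33 ± 0.14 and 0.32 ± 0.14 for leptin loss. None of these passed (limma, adjusted p = 0.212, 0.187 and 0.185 over all probe sets), and their sign depended on the probe set.

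Txnrd1, cytosolic thioredoxin reductase, stood at 9.68 and 9.56 on the wild-type arrays, 9.65 and 9.87 on those of SHP-/-, 9.17 and 9.41 on those of OB-/-, and 9.24 and 9.35 on those of OB-/-/SHP-/-. Each leptin-null array was below each leptin-intact one, and the differences of -0.33 ± 0.15 with SHP and -0.47 ± 0.15 without it did not pass (adjusted p = 0.157 and 0.0670). The latter passed with arrays set to equal medians (0.0462) and with a variance trend (0.0399). It did not pass in the other 18 of 20 alternatives, and over all of them its value lay between -0.58 and -0.13. A dimmer probe set pointed the other way with SHP present. It read 6.72 and 6.57 on the wild-type arrays, 7.40 and 7.23 on those of SHP-/-, 7.20 and 7.08 on those of OB-/-, and 7.19 and 7.12 on those of OB-/-/SHP-/-, and its rise over wild-type in OB-/- was 0.49 ± 0.13 (adjusted p = 0.0316 over all probe sets). The third probe set was dim, with a mean of 4.44, and gave 0.10 ± 0.18. The direction of Txnrd1 in OB-/- against wild-type therefore depends on the probe set. With SHP absent, the dimmer probe set gave -0.16 ± 0.13 for leptin loss and the third gave 0.22 ± 0.18. In SHP-/- against wild-type, the dimmer probe set differed by 0.67 ± 0.13, which did not pass (limma, adjusted p = 0.0854 over all probe sets, unadjusted p = 0.000503). There the probe set used gave 0.14 ± 0.15 and the third gave -0.02 ± 0.18.

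**Figure D3:**
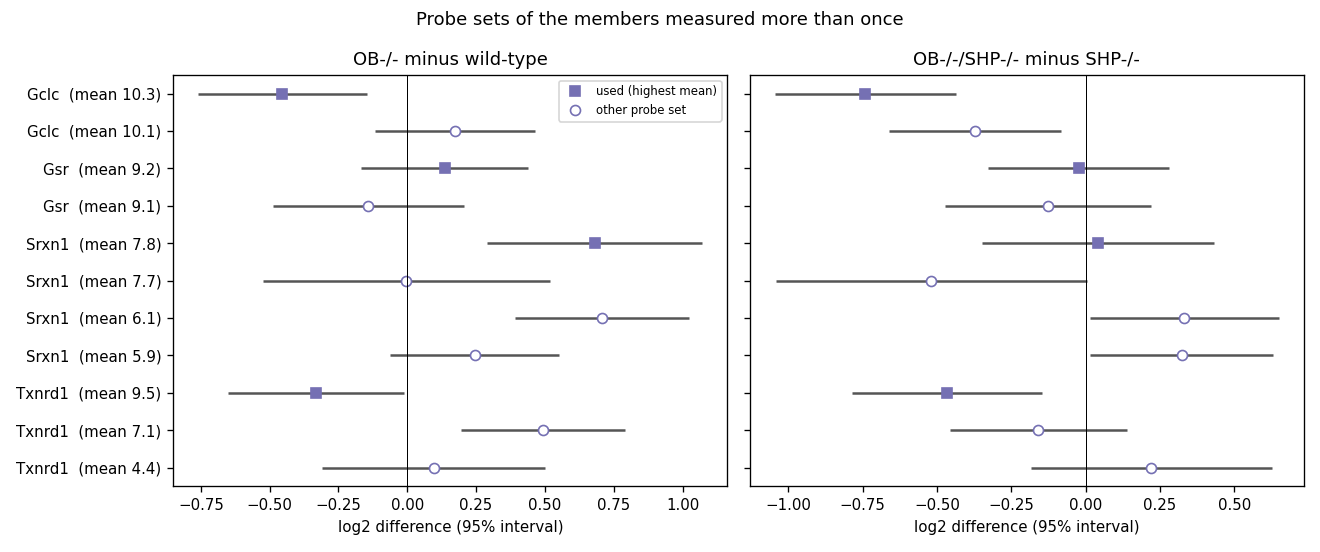
Log2 differences with 95% intervals (horizontal axis) for each probe set of Gclc, Gsr, Srxn1 and Txnrd1 in both leptin comparisons, with squares for the probe set used and open circles for the others. In OB-/- against wild-type, the probe sets of Gclc (-0.45 and 0.17) and of Txnrd1 (-0.33, 0.49 and 0.10) lie on both sides of 0.

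Hmox1, heme oxygenase 1, breaks heme down to biliverdin, carbon monoxide and iron, and is expressed by macrophages as well as by stressed hepatocytes. It stood at 6.86 and 6.82 on the wild-type arrays, 7.26 and 6.64 on those of SHP-/-, 7.32 and 7.00 on those of OB-/-, and 7.54 and 7.70 on those of OB-/-/SHP-/-. OB-/-/SHP-/- was above all other arrays, and the remaining neighbours overlapped. With SHP absent, leptin loss gave 0.67 ± 0.20 (adjusted p = 0.0525), just outside the threshold. It passed in 7 of 20 other settings, among them quantile normalisation (0.0479), dim genes left out (0.0461), a variance trend (0.0457), a robust variance fit (0.0455) and the replicate block (0.0407). That difference was 0.98 and passed without SHP-/- replicate 1 (adjusted p = 0.00915), and 0.36 without SHP-/- replicate 2 (adjusted p = 0.327). The macrophage markers, all 10 measured, had a mean level of 6.39 to 6.47 on the wild-type arrays, 7.02 to 7.62 on those of SHP-/-, 7.63 to 7.67 on those of OB-/- and 7.81 to 7.98 on those of OB-/-/SHP-/-. In SHP-/-, replicate 1 had a marker level of 7.62 and Hmox1 at 7.26, and replicate 2 had 7.02 and 6.64. In OB-/-, replicate 1 had a marker level of 7.63 and Hmox1 at 7.32, and replicate 2 had 7.67 and 7.00. In wild-type and OB-/-/SHP-/- the array with the higher marker level also had the higher Hmox1. In whole liver a change in the number of a cell type and a change of RNA per cell cannot be told apart, and the part of macrophages in the Hmox1 values was not tested.

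**Figure D4:**
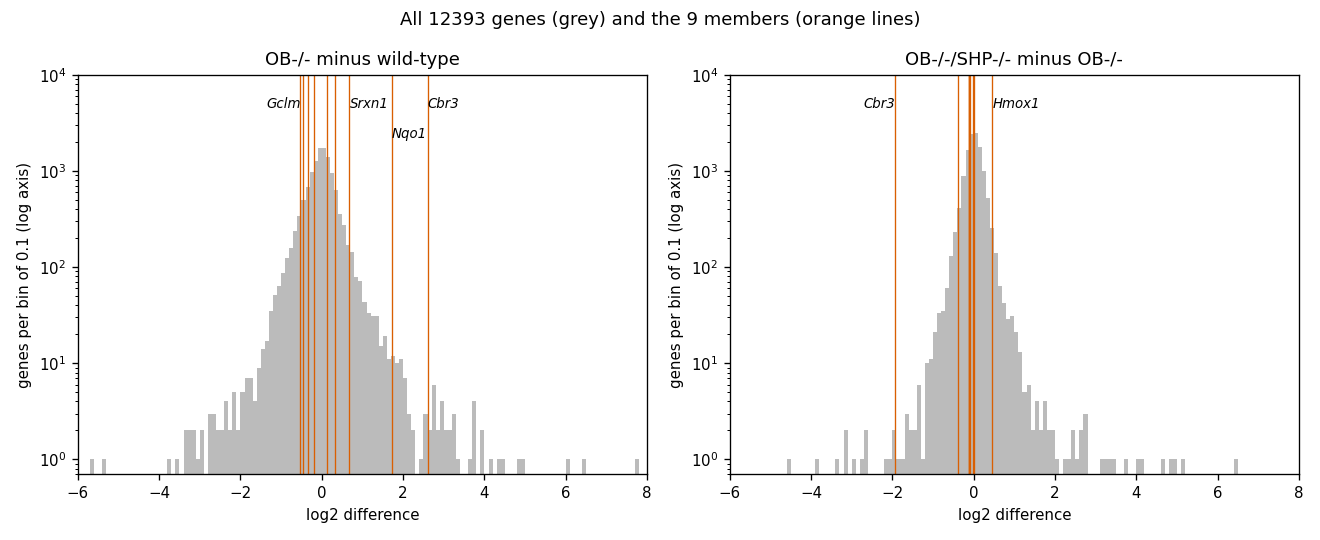
Number of genes (vertical axis, log scale) by log2 difference (horizontal axis, bins of 0.1) in OB-/- minus wild-type and OB-/-/SHP-/- minus OB-/-, with an orange line at each of the 9 members. Cbr3 at 2.61 and Nqo1 at 1.72 lie in the upper tail on the left, and Cbr3 at -1.92 in the lower tail on the right.

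Beyond the 9 members, 7 lists of the wider pathway held 62 genes, of which 53 were measured. In OB-/- against wild-type 14 rose and 5 fell, against the 16.9% of all genes called, with a median difference of 0.09 against -0.01 over all genes. With SHP absent 6 rose and 2 fell, where 4.95% of all genes rose and 5.62% fell, with a median of 0.04 against 0.03. SHP loss moved 0 of 53 in leptin-intact mice by limma, with 4 at an unadjusted p below 0.05, and 1 in leptin-null mice, with 16 at an unadjusted p below 0.05, while 0.323% and 2.14% of all genes were called. The interaction called 0 of 53 by limma, with 6 at an unadjusted p below 0.05 and 0.549% of all genes called. Every list count below for OB-/- against wild-type stands against 7.58% of all genes higher and 9.36% lower. The lists, also chosen with earlier results of these data known, are described by these counts and by no test of their own.

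In the list named for the supply of NADPH, the electron source of Nqo1, Gsr and Txnrd1, 5 of 5 measured genes rose in OB-/- against wild-type. Their median difference was 1.32, and G6pdx of the same list was not measured. Me1, malic enzyme, stood at 9.64 and 9.57 in wild-type and at 12.07 and 12.19 in OB-/-, and rose 5.75-fold (2.52 ± 0.15, adjusted p = 1.14587e-06). Taldo1, transaldolase of the pentose phosphate pathway, rose by 1.32 ± 0.14, Pgd, which makes NADPH in that pathway, by 1.38 ± 0.18, and transketolase, Tkt, by 0.95 ± 0.16. With SHP absent 3 of the 5 rose, where 4.95% of all genes rose. The rises were 2.21 ± 0.15 for Me1, 0.90 ± 0.14 for Taldo1 and 0.81 ± 0.16 for Tkt. Me1 and other genes of this list are also known as genes of fat synthesis.

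Among regulators and partners of NRF2, 3 of 10 fell in OB-/- against wild-type and 0 rose, where 9.36% of all genes fell, with a median of -0.37 against -0.01 over all genes. Mafg, a small MAF partner, stood at 9.05 and 8.72 in wild-type and at 8.00 and 7.73 in OB-/-, and fell by 1.02 ± 0.17 (adjusted p = 0.00214). Bach1, the repressor that competes with NRF2, fell by 1.14 ± 0.22 (adjusted p = 0.00578), and Maff, a further small MAF, by 0.86 ± 0.25 (adjusted p = 0.0341). With SHP absent only Maff of the 10 passed, where 5.62% of all genes fell, and it fell by 1.02 ± 0.25 (adjusted p = 0.0233). The call of Bach1 was lost without wild-type replicate 1 or OB-/- replicate 2 (up to 0.0731), that of Maff against wild-type without any 1 of the 4 arrays compared (up to 0.222), and with SHP absent without SHP-/- replicate 1 or either OB-/-/SHP-/- array (up to 0.108).

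Of 12 genes of glutathione synthesis, use and conjugation, 4 rose and 1 fell in OB-/- against wild-type, where 7.58% of all genes rose and 9.36% fell. Gstm3, a glutathione S-transferase of the mu class, stood at 8.95 and 8.58 in wild-type and at 11.97 and 12.10 in OB-/-, and rose 9.65-fold (3.27 ± 0.17, adjusted p = 4.80269e-07). It also rose with SHP absent (2.74 ± 0.17), and its close paralogs may share its probes. Gpx4, which reduces lipid peroxides, rose by 0.91 ± 0.13, and glutaredoxin, Glrx, by 0.77 ± 0.17. Gstp1, a transferase of the pi class, fell by 0.84 ± 0.14 with SHP and by 1.00 ± 0.14 without it (adjusted p = 0.00209 and 0.00123). The call of Glrx was lost without wild-type replicate 2 or OB-/- replicate 1 (up to 0.0838) and with its probe sets averaged (0.40, adjusted p = 0.133).

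Of the remaining lists, only that of thioredoxins and peroxiredoxins had calls in both directions within a single comparison. Cbr1, the neighbour of Cbr3 in the same enzyme family, rose by 0.98 ± 0.14 with SHP and by 0.82 ± 0.14 without it (adjusted p = 8.12327e-04 and 0.00417), and SHP loss in leptin-null mice gave -0.08 ± 0.14 for it (adjusted p = 0.901). Ephx1, microsomal epoxide hydrolase, was the 1 listed gene called for SHP loss, at -0.61 ± 0.14 in OB-/-/SHP-/- against OB-/- (adjusted p = 0.0466). That call was lost with any 1 of the 8 arrays left out (adjusted p from 0.0556 to 0.284). Of 7 thioredoxins and peroxiredoxins, the mitochondrial Prdx3 rose by 0.98 ± 0.16 and Prdx4 of the endoplasmic reticulum fell by 1.02 ± 0.21 in OB-/- against wild-type. Of 6 superoxide and peroxide enzymes 3 rose: extracellular superoxide dismutase Sod3 by 1.00 ± 0.17, plasma glutathione peroxidase Gpx3 by 0.77 ± 0.20 and Msra, which repairs oxidised methionine, by 0.52 ± 0.13. Among 6 genes of iron and heme handling 0 were called in OB-/- against wild-type by limma, with 1 gene at an unadjusted p below 0.05, and biliverdin reductase B, Blvrb, rose by 0.53 ± 0.14 with SHP absent (adjusted p = 0.0388).

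Of these calls, those of Prdx4, Gpx3, Msra and Blvrb were each lost without at least 2 single arrays (adjusted p up to 0.0755, 0.183, 0.141 and 0.142), Prdx4 also with its probe sets averaged (-0.62, adjusted p = 0.0852), and that of Tkt with SHP absent without OB-/-/SHP-/- replicate 2 (0.0589). Of the macrophage, endothelial and stellate markers, 8 of 10, 3 of 5 and 3 of 6 were called higher in OB-/- than in wild-type. Over all genes 7.58% were higher there, and the median differences of the lists were 1.25, 0.93 and 0.55. Not every marker rose: the endothelial Stab2 gave -0.04, and the stellate Acta2 and Des gave -0.23 and -0.0029. In OB-/- against wild-type 2 of 5 hepatocyte markers were called lower (Hnf4a at -0.76 and Cps1 at -0.51), against 9.36% of all genes. The rest were not called: Apoa1 gave -0.26, Alb 0.10 and Ttr 0.21. The median difference of the 5 was -0.26. The part of these cell types in the values was not tested.

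**Figure D5:**
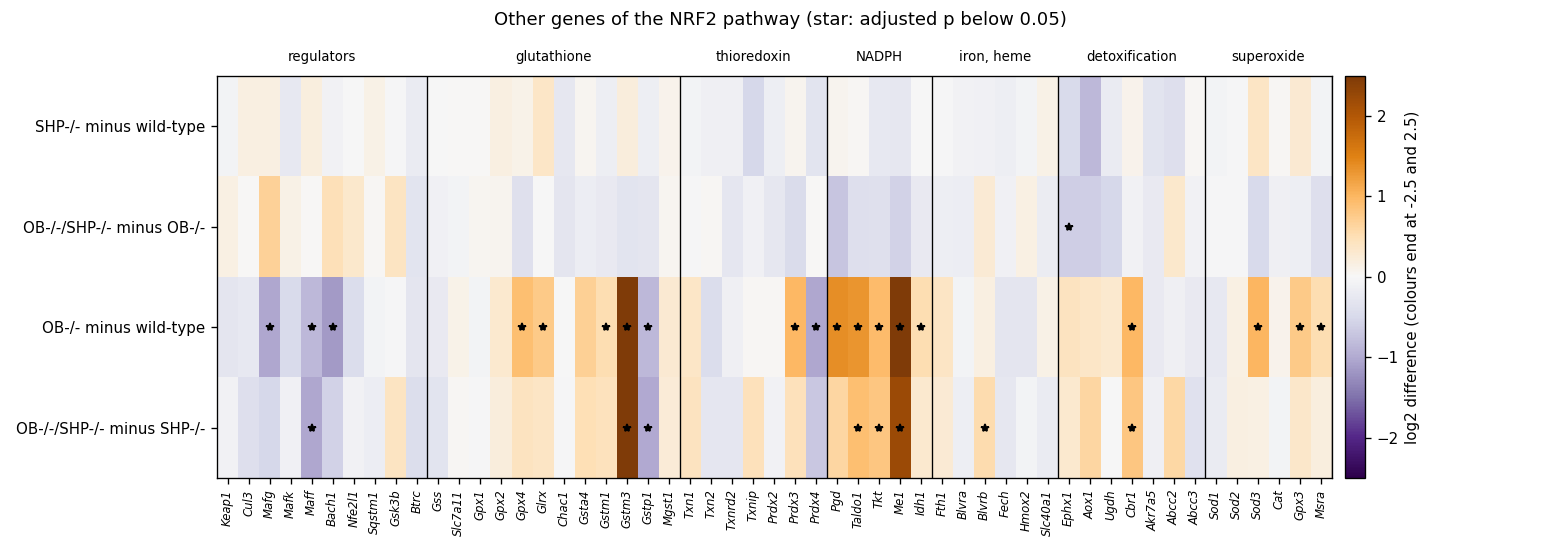
Log2 differences (colour) of the 53 measured genes of the wider pathway (horizontal axis, grouped by list) in the 4 comparisons (vertical axis), with a star where the adjusted p was below 0.05. The stars gather in OB-/- minus wild-type, where all 5 measured genes of NADPH supply rose, and 1 star stands in OB-/-/SHP-/- minus OB-/-.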

How the data were processed

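The deposited values are on a log2 scale as their range (2.20 to 14.19) shows; how the authors corrected background and normalized is not given in the sources used here, and R 2.15.0 is named in the submitters' processing notes. Because the depth of an array has no count, the number of arrays (8) limits the precision. Of 22690 probe sets, 20380 name 1 gene by the platform annotation, 691 several and 1555 none, and 64 are controls. Per gene, the brightest probe set by its mean was kept, which left 12393 genes. The 4 genotypes were fitted with limma 3.58.1 in R 4.3.3, with 1 mean per genotype over all 8 arrays, and p-values were adjusted by Benjamini-Hochberg over all genes within each of 5 comparisons, at a threshold of 0.05. The script was tested on simulated data.

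The members and the gene lists were chosen with earlier results of these data known. All members are named, and of each list up to 4 called genes by smallest adjusted p. Likeness was searched among genes at or above the median level with no clone or predicted name. Deviations of same-numbered replicates correlated at 0.10 to 0.20 between wild-type, OB-/- and OB-/-/SHP-/-, and at -0.11 to -0.01 between each of these and SHP-/-. As not every pair was above 0.1 and no label gives a pairing, the fit has no replicate block. Alternatives covered normalisation, probe set choice, filters, variance models, a replicate block and arrays left out. Upstream sequences came from RefSeq (GRCm38.p6); Gclc, Gsr and Hmox1 are named only.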

Additional observations from a re-analysis of the deposited data

Results flagged for a closer look

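The measured difference for SHP loss in Cbr3 was lower in leptin-null than in leptin-intact mice by -1.78 on the log2 scale (limma interaction term, adjusted p = 0.00145). In leptin-intact liver the probe set read 4.25 to 4.44, below the dim level of 4.83, so a fall there had little room to be read and the value is limited by that. Both OB-/-/SHP-/- arrays were below both OB-/- arrays, and both SHP-/- arrays were below both wild-type arrays by a smaller margin. With any single array left out the value stayed between -1.96 and -1.61, and adjusted p was at most 0.0202.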

How the results depend on the processing

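The calls of Cbr3 and Nqo1 held with any single array left out and without both OB-/- replicate 1 and SHP-/- replicate 1. Among values that use 1 level per gene, none that passed the test changed sign under these alternatives, but single further probe sets did: in OB-/- against wild-type that of Gclc gave 0.17 against -0.45, and 1 of Srxn1 gave -0.0031 against 0.68. Of 9 members, 5 were called in OB-/- against wild-type as reported, 3 with probe sets averaged, 3 with a minimum change of 1.5-fold, 2 without both of those arrays, and 2 to 5 with 1 array left out. In OB-/-/SHP-/- against SHP-/- 3 were called with only the arrays compared, 3 without both of those arrays, and 2 to 5 with 1 array left out. Among all genes, the SHP-/- against wild-type count of 40 became 68 with a variance trend, 100 over every probe set, 23 with only the arrays compared and 5 to 95 with 1 array left out. For OB-/-/SHP-/- against OB-/- (265) it was 119 without both arrays and 80 to 298 with 1 left out. For OB-/- against wild-type (2100) it was 3592 over every probe set, 1121 without both arrays and 956 to 2234 with 1 left out. For OB-/-/SHP-/- against SHP-/- (1311) it was 615 with only the arrays compared, 632 without both and 600 to 1307 with 1 left out. For the interaction (68) it was 120 over every probe set, 39 without both and 32 to 113 with 1 left out. The cause of these shifts was not tested, beyond the change in the number of features or arrays. The replicate block gave 51, 275, 2147, 1359 and 77 genes in the order SHP-/- against wild-type, OB-/-/SHP-/- against OB-/-, OB-/- against wild-type, OB-/-/SHP-/- against SHP-/- and interaction, and added Hmox1 in OB-/-/SHP-/- against SHP-/- (adjusted p = 0.0407). Signals near background limit Cbr3 in leptin-intact liver.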

Other observations

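OB-/-/SHP-/- and wild-type differ in both genes and were not tested against each other. Their means differed by 0.68 for Cbr3, 1.61 for Nqo1, 0.78 for Hmox1 and 0.56 for Srxn1, and by -0.57 for Nfe2l2, -0.56 for Gclc, -0.62 for Gclm and -0.33 for Txnrd1. Gsr differed by 0.11.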
